A study of Mus musculus with 2 samples.

Results

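The genes described here are 7 members of the epidermal growth factor (EGF) receptor system: the ligands Areg, Hbegf, Ereg and Tgfa and the receptors Egfr, Erbb2 and Erbb3. They were chosen by symbol, and all 7 were found among the 28692 genes that both libraries list. The levels were read in mouse lung cells by droplet single-cell RNA sequencing, with 1 library per group. The tumor-bearing library came from wild type C57BL/6 lung taken at day 14 after 1000000 luciferase-labeled LLC cells, a mouse lung carcinoma line, were put under the skin of the back. The control library came from wild type C57BL/6 lung without tumor or treatment. In both, CD45- SftpC+ cells were sorted from collagenase-digested lung, to a stated purity above 95%, as a preparation of alveolar type 2 (AT2) cells. Neither the number of mice pooled nor their age is given in the sources used here. With 1 library per group, no difference has a replicate check and no p-value is given. All intervals below are 95% intervals that cover counting error only.

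EGF family ligands are made as membrane-anchored precursors and are released by surface proteases such as ADAM17. Areg, Tgfa, Ereg and Hbegf bind the EGF receptor, a tyrosine kinase that signals through RAS and ERK. Erbb2 has no known ligand and acts as a partner in receptor pairs, while Erbb3 binds neuregulins and has little kinase activity of its own. In the alveolus, AT2 cells make surfactant and can give rise to the flat alveolar type 1 (AT1) cells, and amphiregulin, the product of Areg, is known as an epithelial repair factor of the lung.

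On mm10, with the GENCODE vM21 annotation, Areg (ENSMUSG00000029378) lies on the plus strand of chromosome 5, from 91139599 to 91148432. Ereg (ENSMUSG00000029377) lies before it on the same strand, from 91074622 to 91093646, and the gap between the pair is 45952 bases. Tgfa lies on the plus strand of chromosome 6, from 86195223 to 86275719. Egfr (16752203 to 16918158) and Erbb2 (98412470 to 98437716) share the plus strand of chromosome 11, and Erbb3 lies on the minus strand of chromosome 10, from 128567523 to 128589652. The promoter table from RefSeq, on GRCm38.p6, matched 4 members, namely Areg, Tgfa, Egfr and Erbb2. The Areg promoter is shown because Areg had the largest fold among the ligands measured in AT2 cells at 20 counts per 1000000 or more. Its 250 bases before the start site, chr5:91139349-91139598 on the plus strand, read 5′ to 3′ as follows, with a cyclic AMP response element (CRE) in capitals.
Areg promoter: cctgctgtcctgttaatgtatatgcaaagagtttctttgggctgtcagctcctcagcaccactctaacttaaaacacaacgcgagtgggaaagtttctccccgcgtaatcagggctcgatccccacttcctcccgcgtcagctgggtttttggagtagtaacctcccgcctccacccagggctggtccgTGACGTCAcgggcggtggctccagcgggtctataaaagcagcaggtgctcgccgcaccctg
The element TGACGTCA, which reads the same on both strands, starts at position -61, where -1 is the last base before the start site. For these counts each promoter entry was read over 300 bases, 250 before the start site and 50 after it. The element was present in 588 of the 32851 promoters of the table (1.79%), and in none of the Tgfa, Egfr and Erbb2 entries. The AP-1 motif TGANTCA, also read on both strands, was present in 2565 promoters (7.81%) and in none of these 4 entries. A match here describes letters only, and neither motif is part of the other.

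The tumor-bearing library held 84448360 unique molecular identifiers (UMIs) and the control library 91498124. After filters, 7632 tumor-bearing and 10021 control cells were kept, with medians of 8552 and 6763 UMIs per cell, and the libraries shared 118 cell barcodes. AT2 cells, taken as barcodes of at least 2000 UMIs with Sftpc at 15% of them or more, numbered 6262 in tumor-bearing and 9089 in control lung. The other classes were clusters named from markers, found without the 7 genes. In the tumor-bearing and the control library they held 175 and 316 AT1 cells, 244 and 66 club cells, 215 and 283 ciliated cells, 526 and 64 endothelial cells, and 23 and 42 basal cells. Basal cells were too few for comparison, so only their levels are given. All AT2, AT1, ciliated, basal and endothelial markers were highest in their own class in both libraries, while of the 8 club markers this held for 3 in tumor-bearing and 5 in control lung. The sort was for SftpC, so the size of the other classes is set by the sort and not by the tissue.

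Areg was a transcript of AT2 and ciliated cells. Its level, as UMIs summed over the cells of a class per 1000000 UMIs of that class (CPM), was 127 CPM (124 to 130) in tumor-bearing AT2 cells, against 70.8 CPM (68.8 to 72.9) in control AT2 cells. In ciliated cells it was 157 CPM (135 to 181) in the tumor-bearing and 122 CPM (103 to 142) in the control library. The ciliated intervals lay above those of AT2 cells in both libraries, and the AT2 intervals lay above those of AT1 cells, which had 42.4 CPM (32.1 to 55.1) in the tumor-bearing and 22.9 CPM (16.9 to 30.3) in the control library. A few ciliated cells carried much of it: the 5 cells with the most Areg UMIs held 105 of 181 UMIs (58.0%) in the tumor-bearing library and 66 of 157 (42.0%) in the control library. In AT2 cells the same 5-cell share was 3.02% of 7307 UMIs in the tumor-bearing and 2.23% of 4538 UMIs in the control library.

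Areg in the remaining classes did not stand clear of what free RNA could give at most, which does not show that it was free RNA. Droplets with no more than 100 UMIs, which hold RNA set free from broken cells, carried Areg at 86.2 CPM in the tumor-bearing and 66.8 CPM in the control library. If all Sftpc UMIs of a class were free RNA, that source would give club cells up to 7.69 CPM of Areg in the tumor-bearing and 7.40 CPM in the control library, where 5.36 and 5.56 CPM were measured. Endothelial cells had 8.15 CPM of Areg in the tumor-bearing library, against a ceiling of 7.15 CPM within the measured interval of 4.56 to 13.4, and 4.71 CPM in the control library, against a ceiling of 10.8. Basal cells held 3 Areg UMIs in tumor-bearing and 1 in control lung. In AT2 cells the ceiling, set from the club transcript Scgb1a1, was 4.79 CPM in the tumor-bearing and 12.3 CPM in the control library, far under the measured levels.

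Hbegf, the heparin-binding ligand, was a transcript of AT1 cells first. It reached 350.1 CPM (319 to 384) in tumor-bearing AT1 cells and 319 CPM (296 to 344) in control AT1 cells, 5.24-fold (4.75 to 5.77) and 6.37-fold (5.86 to 6.92) the AT2 level of the same library. Endothelial cells came next, with 116 CPM (101 to 132) in the tumor-bearing and 127 CPM (83.7 to 185) in the control library. AT2 cells had 66.9 CPM (64.8 to 69.0) in the tumor-bearing library, against 50.1 CPM (48.4 to 51.9) in the control library. The AT1 intervals stood apart from all others in both libraries, and the endothelial ones from those of AT2 cells. Ciliated cells had 40.7 CPM (29.9 to 54.2) in the tumor-bearing and 74.3 CPM (60.2 to 90.8) in the control library, so they stood below AT2 cells in the tumor-bearing library and above them in the control library. Club cells were lowest, at 9.24 CPM (6.86 to 12.2) in the tumor-bearing and 21.1 CPM (12.7 to 33.0) in the control library. Basal cells held 5 Hbegf UMIs in tumor-bearing and 12 in control lung.

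Tgfa, which encodes transforming growth factor alpha, was low throughout. Its level was highest in AT1 cells, at 11.4 CPM (6.36 to 18.7) in the tumor-bearing and 12.2 CPM (7.94 to 17.8) in the control library. AT2 cells had 5.20 CPM (4.63 to 5.83) in the tumor-bearing and 5.34 CPM (4.79 to 5.94) in the control library, so the AT1 level was 2.19-fold (1.21 to 3.66) and 2.28-fold (1.47 to 3.39) that of AT2 cells of the same library. Ciliated cells had 7.80 CPM in the tumor-bearing and 5.42 CPM in the control library. Their intervals overlapped those of AT2 cells and those of AT1 cells in both. The AT1 intervals also overlapped those of basal cells in both libraries and of control endothelial cells (9.41 CPM, from 2 UMIs).

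Ereg, the epiregulin gene beside Areg, was close to undetected. In AT2 cells 10 Ereg UMIs were counted from tumor-bearing and 9 from control lung, which is 0.174 CPM and 0.141 CPM, from 9 and 8 cells. Of the other classes only tumor-bearing ciliated cells held any, with 1 UMI. AT1 cells held 0 UMIs in both libraries, where 3 counts would be 2.27 CPM in the tumor-bearing and 1.40 CPM in the control library.

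**Figure D1:**
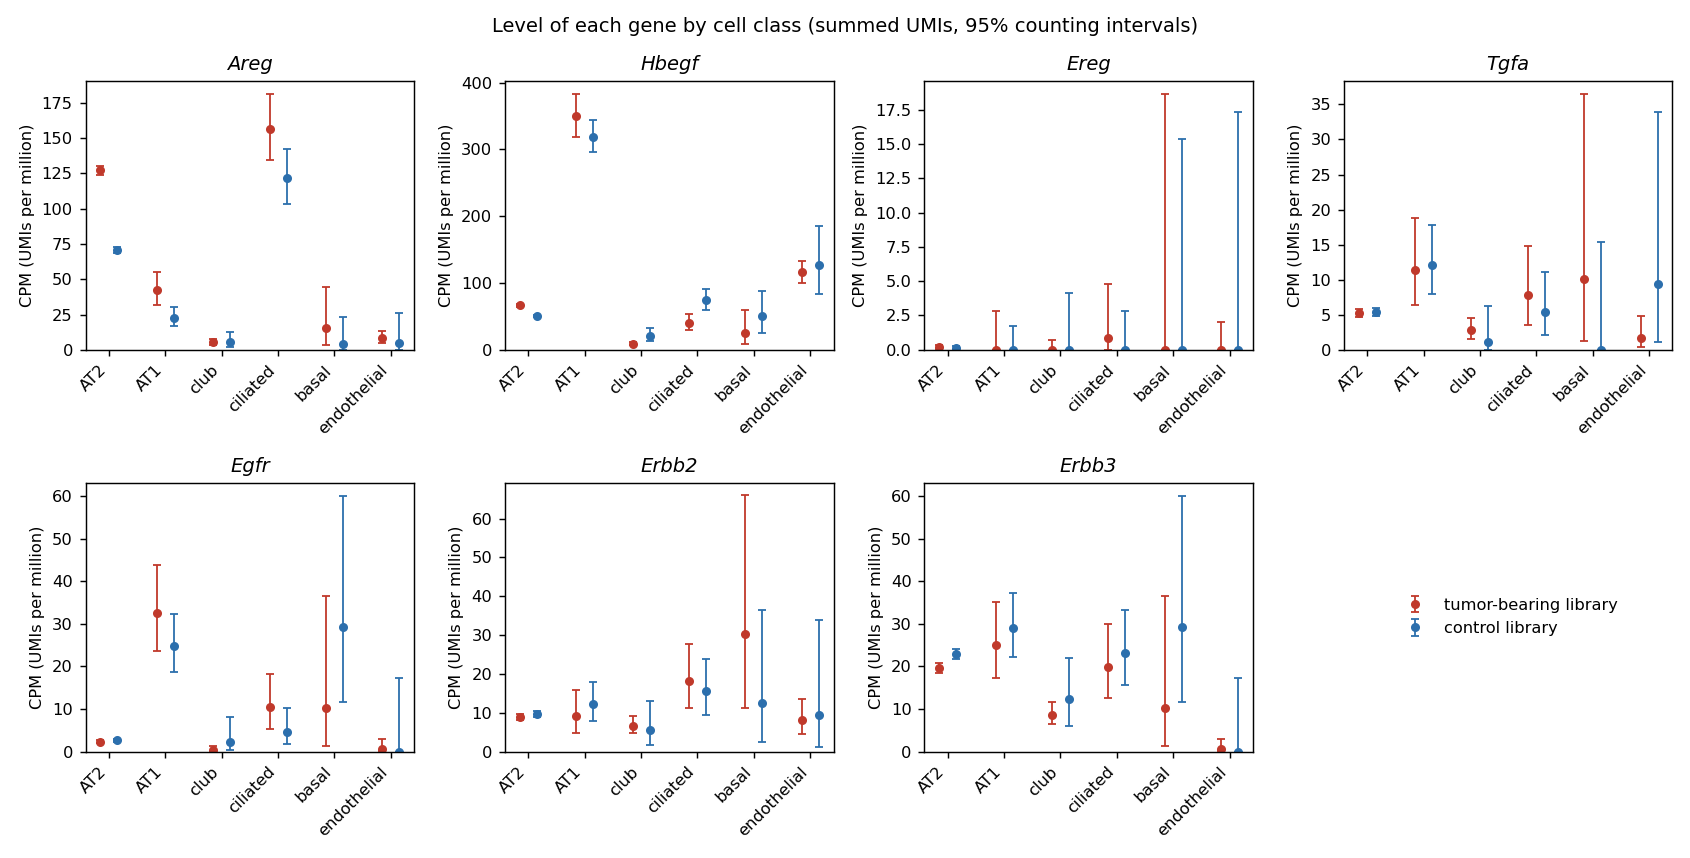
Level of each of the 7 genes by cell class, in summed UMIs per 1000000 (linear axes from 0, with a scale of its own in each panel), for the tumor-bearing (red, left) and the control (blue, right) library, with bars for 95% counting intervals. Areg is highest in ciliated and AT2 cells, Hbegf and Egfr in AT1 cells among the classes of at least 50 cells, and Erbb3 is near 0 in endothelial cells.

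Among the receptors, Egfr was highest in AT1 cells of the classes with at least 50 cells. It stood at 32.6 CPM (23.6 to 43.9) in tumor-bearing and 24.8 CPM (18.6 to 32.4) in control AT1 cells, 14.4-fold (9.96 to 20.5) and 9.45-fold (6.80 to 12.9) the AT2 level of the same library. AT2 cells had 2.26 CPM (1.89 to 2.69) in the tumor-bearing and 2.62 CPM (2.24 to 3.05) in the control library. Empty droplets carried Egfr at 2.61 CPM in the tumor-bearing and 2.58 CPM in the control library, yet free RNA of the amount that Scgb1a1 allows would give AT2 cells no more than 0.145 and 0.477 CPM. Ciliated cells had 10.4 CPM (5.37 to 18.2) in the tumor-bearing and 4.65 CPM (1.71 to 10.1) in the control library, below AT1 cells in both. Basal cells, with 2 UMIs in tumor-bearing and 7 in control lung, had 10.1 CPM (1.22 to 36.5) and 29.2 CPM (11.7 to 60.1), which cannot be told from AT1 cells. Endothelial cells held 1 Egfr UMI in tumor-bearing and 0 in control lung.

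Erbb3 was an epithelial transcript. It stood at 19.7 CPM (18.5 to 20.8) in tumor-bearing and 22.8 CPM (21.7 to 24.0) in control AT2 cells. AT1 cells had 25.0 CPM (17.2 to 35.1) in the tumor-bearing and 29.0 CPM (22.2 to 37.2) in the control library, and ciliated cells had 19.9 CPM (12.6 to 29.9) and 23.2 CPM (15.7 to 33.2) in the tumor-bearing and the control library. The intervals of these 3 classes overlapped. Club cells were lower, at 8.69 CPM (6.38 to 11.6) in the tumor-bearing and 12.2 CPM (6.11 to 21.9) in the control library, 0.442 times (0.323 to 0.592) and 0.536 times (0.267 to 0.961) the AT2 level. In 526 tumor-bearing endothelial cells 1 Erbb3 UMI was counted, 0.0276 times (0.000699 to 0.154) the AT2 level, and 64 control endothelial cells held 0.

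Erbb2 differed less between classes than Egfr or Erbb3. AT2 cells had 8.98 CPM (8.22 to 9.79) in the tumor-bearing and 9.55 CPM (8.81 to 10.3) in the control library. AT1, club and endothelial cells had between 6.65 and 9.09 CPM in the tumor-bearing and between 5.56 and 12.2 CPM in the control library, and their intervals overlapped those of AT2 cells. Ciliated cells had 18.2 CPM (11.3 to 27.8) in the tumor-bearing library, 2.03-fold (1.24 to 3.13) the AT2 level, and 15.5 CPM (9.46 to 23.9) in the control library, 1.62-fold (0.983 to 2.53). Basal cells had 30.3 CPM (11.1 to 66.0), from 6 UMIs, in the tumor-bearing library and 12.5 CPM (2.58 to 36.5), from 3 UMIs, in the control library.

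The design sets the tumor-bearing library against the control library, and in AT2 cells Areg passed the size rule. Its 127 CPM in tumor-bearing and 70.8 CPM in control AT2 cells gave a fold of 1.79 (1.73 to 1.86), a log2 ratio of 0.83 on CPM + 1. A gene was called where it reached 20 CPM in either library and a fold of 1.5 in either direction. Of the 7 genes 3 reached 20 CPM in AT2 cells, and 1 of them, Areg, was called higher, while 1.29% of the 4016 genes that reached this level were called higher, 0.896% were called lower and 2.19% were called in either direction. The median log2 ratio over those 4016 genes was -0.04. Hbegf, at 66.9 CPM in tumor-bearing and 50.1 CPM in control AT2 cells, had a fold of 1.33 (1.27 to 1.40) and was not called. Erbb3, at 19.7 CPM in tumor-bearing and 22.8 CPM in control AT2 cells, had a fold of 0.861 (0.796 to 0.931) and was not called. The 4 genes under 20 CPM had folds of 0.974 (0.832 to 1.14) for Tgfa, 0.862 (0.681 to 1.09) for Egfr, 0.940 (0.834 to 1.06) for Erbb2 and 1.24 (0.452 to 3.44) for Ereg, all with intervals that hold 1.

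The shares of AT2 cells with an Areg, Hbegf or Erbb3 UMI had the order of their CPM once cells were thinned to 2000 UMIs each, which takes the deeper sequencing of the tumor-bearing cells out of the count. Areg was seen in 14.2% (13.4 to 15.1) of thinned tumor-bearing and 9.91% (9.31 to 10.5) of control AT2 cells, and unthinned in 30.4% and 20.5%. Thinned club cells, with Areg under the free RNA ceiling, held it in 2.05% of cells in tumor-bearing and 1.52% in control lung. Cells with 5 or more thinned Areg UMIs numbered 42 of 6262 (0.671%) in the tumor-bearing library and 11 of 9089 (0.121%) in the control library. Hbegf was seen in 9.71% (8.99 to 10.5) of thinned tumor-bearing and 8.03% (7.48 to 8.61) of control AT2 cells, and unthinned in 29.0% and 21.4%. Erbb3 was seen in 3.96% (3.49 to 4.47) of thinned tumor-bearing and 4.51% (4.09 to 4.96) of control AT2 cells, and unthinned in 16.1% and 14.5%, so its unthinned order ran against its CPM. Tgfa, Egfr and Erbb2 were seen in 1.05%, 0.607% and 1.98% of thinned tumor-bearing AT2 cells, against 1.03%, 0.429% and 1.83% of control AT2 cells. These 3 shares ran against the order of the CPM, and their intervals overlapped between libraries. Ereg was seen in 2 thinned tumor-bearing and 3 control AT2 cells.

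**Figure D2:**
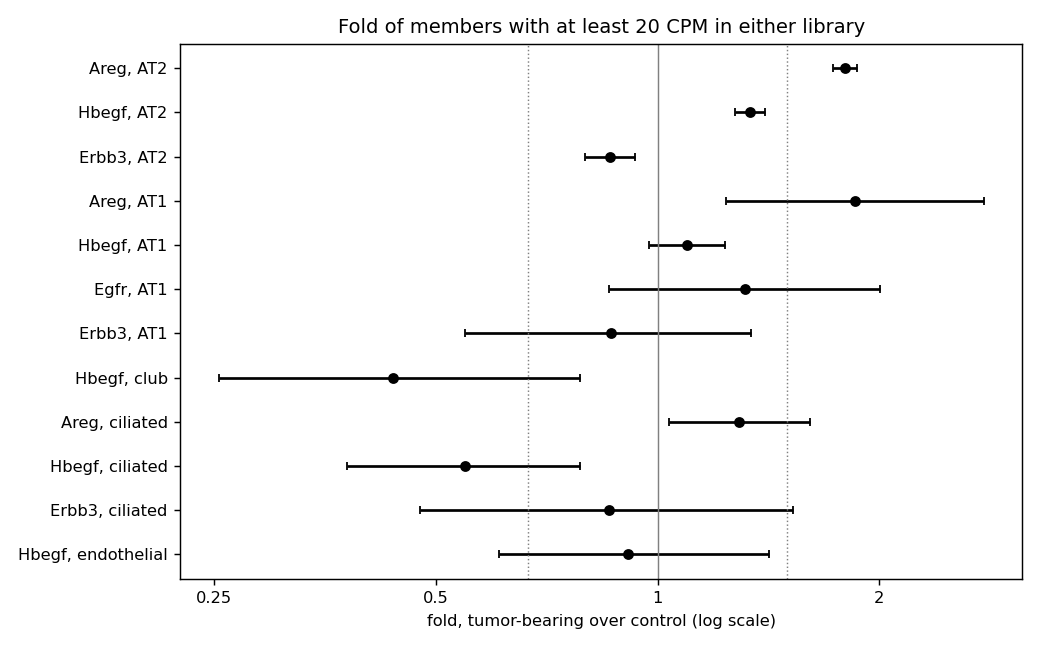
Fold of tumor-bearing over control CPM (log axis) for each gene that reached 20 CPM in either library of a class with at least 50 cells in both, with bars for 95% counting intervals and dotted lines at 1.5-fold in either direction. Areg in AT2 cells (1.79) has the narrowest interval beyond the dotted line, and Hbegf lies below it in club (0.437) and ciliated (0.548) cells.

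AT2 cells were not uniform in Areg, and the clusters within them differed more from each other than the libraries did. Clusters are named here by their leading gene. Areg was lowest in the cluster led by Lrg1, Acoxl and Itih4, at 23.4 CPM in the tumor-bearing and 15.1 CPM in the control library (fold 1.55, 1.32 to 1.83). In the cluster led by Nrn1, Vpreb3 and Gkn3 it was 57.6 CPM in the tumor-bearing and 31.5 CPM in the control library (1.83, 1.46 to 2.27). In the cluster led by the chemokines Cxcl1 and Cxcl2 and the stress factor Atf3 it was 173 CPM in the tumor-bearing and 105 CPM in the control library (1.65, 1.56 to 1.74). It was highest in the cluster led by S100a6, Lgals3 and Ndnf, at 254 CPM in the tumor-bearing and 145 CPM in the control library (1.75, 1.64 to 1.87). The fold was thus above 1.5 in all 4 of these AT2-named clusters. A pair of smaller clusters of gated cells stayed unnamed because other lineages' genes led them. In the one led by Inmt, Mfap4 and Mgp, which are fibroblast genes, Areg was 131 CPM in the tumor-bearing and 92.0 CPM in the control library (1.42, 1.14 to 1.79). In the one led by the platelet genes Nrgn, Ppbp and Clec1b it was 94.0 CPM in the tumor-bearing and 89.1 CPM in the control library (1.06, 0.792 to 1.40).

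The libraries placed different shares of their AT2 cells in these clusters. The Cxcl1-led cluster held 37.8% of tumor-bearing and 25.2% of control AT2 cells, the Nrn1-led one 3.05% and 25.7%, the Lrg1-led one 36.9% and 26.5%, and the S100a6-led one 13.2% and 16.9%. The mean of the log2 ratios within the 6 clusters, unnamed ones included and each weighted equally, was 0.59 for Areg, against 0.83 over all AT2 cells. Hbegf was 17.1 CPM in the tumor-bearing and 14.4 CPM in the control library in the Lrg1-led cluster (fold 1.19, 0.994 to 1.42), and 37.4 and 35.7 CPM in the Nrn1-led cluster (1.05, 0.795 to 1.36). In the Cxcl1-led cluster it was 101 CPM in the tumor-bearing and 88.2 CPM in the control library (1.15, 1.08 to 1.23), and in the S100a6-led cluster 79.2 and 55.4 CPM (1.43, 1.28 to 1.60). The mean of its log2 ratios within the 6 clusters was 0.25, against 0.41 over all AT2 cells. Erbb3 lay between 13.1 and 20.05 CPM in the tumor-bearing and between 22.1 and 23.9 CPM in the control library across the 4 AT2-named clusters, lower in the tumor-bearing library in each. The fold intervals hold 1 in the Lrg1-led (0.737 to 1.002) and the S100a6-led (0.688 to 1.025) cluster. They lie below 1 in the Nrn1-led (0.365 to 0.904, on 22 tumor-bearing UMIs) and the Cxcl1-led (0.748 to 0.984) cluster.

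**Figure D3:**
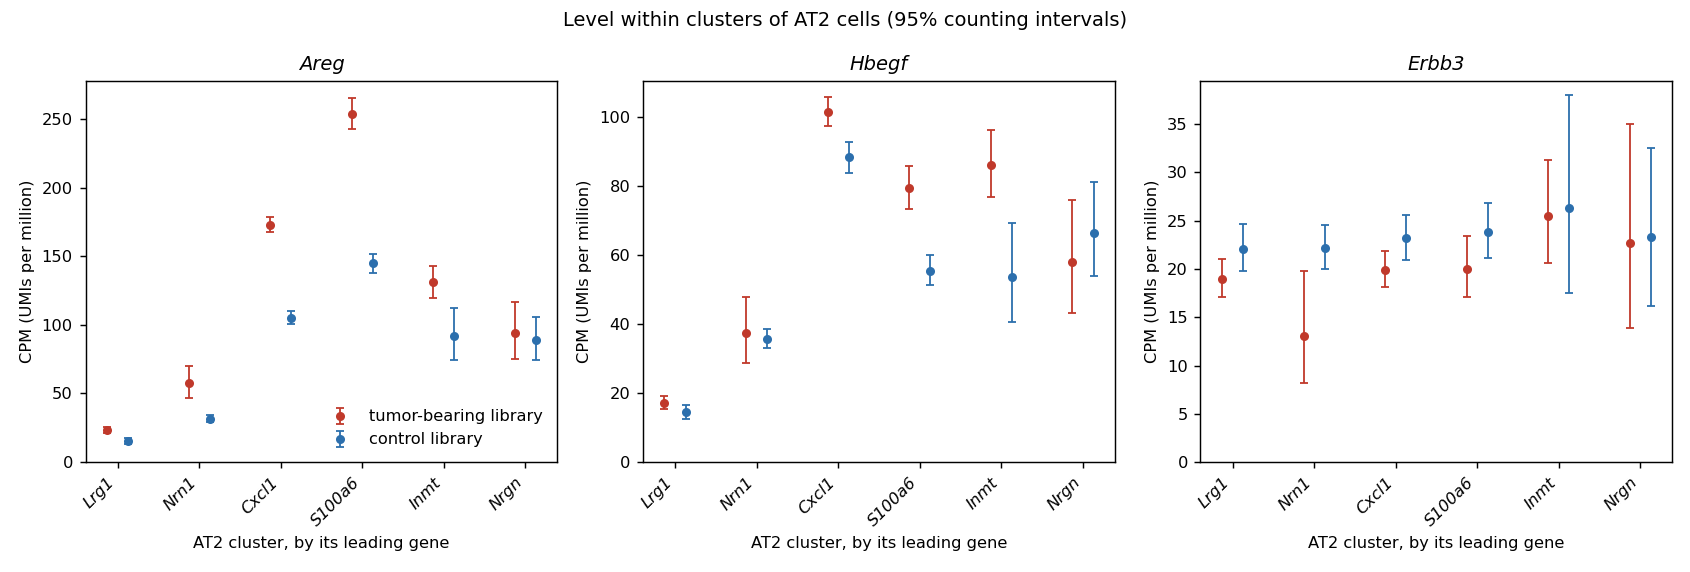
Level of Areg, Hbegf and Erbb3 (summed UMIs per 1000000, linear axes) in 6 clusters of AT2 cells named by their leading gene, for the tumor-bearing (red, left) and the control (blue, right) library, with 95% counting intervals. Areg spans 23.4 to 254 CPM across tumor-bearing clusters and its interval lies above that of the control library in all but the Nrgn-led cluster.

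Both ligands rose with the immediate early genes, which cells switch on within minutes of a stimulus, tissue digestion included. AT2 cells of both libraries were ranked together by their summed share of 22 immediate early and dissociation genes and cut into 4 equal bins. From the lowest to the highest bin Areg was 34.3, 66.6, 129 and 229 CPM in the tumor-bearing library and 24.4, 49.0, 72.8 and 146 CPM in the control library. Its folds in those bins were 1.40 (1.22 to 1.62), 1.36 (1.23 to 1.495), 1.78 (1.65 to 1.91) and 1.56 (1.48 to 1.65). Hbegf was 14.3, 30.2, 71.6 and 123 CPM in the tumor-bearing library and 13.6, 29.5, 62.2 and 101 CPM in the control library. Its folds were 1.05 (0.854 to 1.29), 1.02 (0.895 to 1.17), 1.15 (1.06 to 1.26) and 1.22 (1.14 to 1.30), so the intervals of the lower bins hold 1. Erbb3 kept between 18.3 and 20.9 CPM in the tumor-bearing and between 20.2 and 24.3 CPM in the control library over the 4 bins. The highest bin held 1904 tumor-bearing and 1934 control cells, although the control library had more AT2 cells in all.

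**Figure D4:**
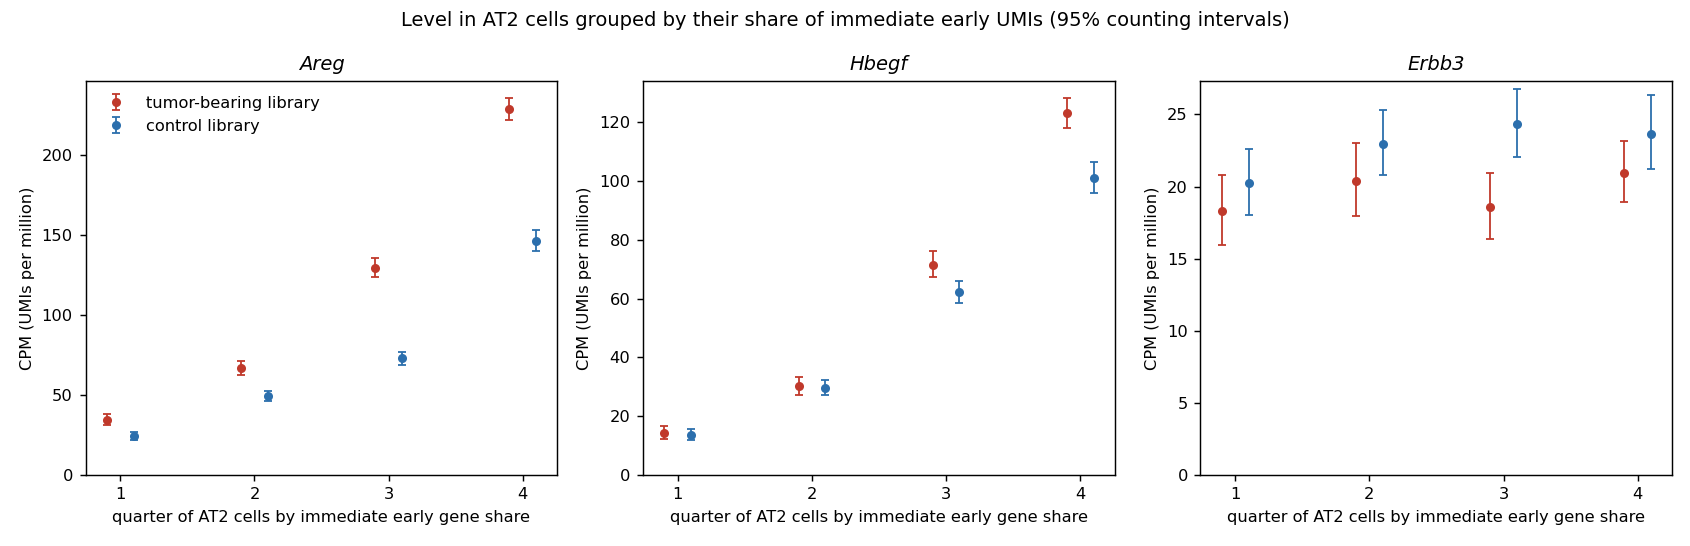
Level of Areg, Hbegf and Erbb3 (summed UMIs per 1000000, linear axes) in AT2 cells binned by their share of immediate early UMIs, from 1 (lowest) to 4 (highest), for the tumor-bearing (red, left) and the control (blue, right) library, with 95% counting intervals. Areg and Hbegf climb from bin 1 to bin 4 in both libraries (Areg to 229 and 146 CPM), and Erbb3 does not.

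Some of these 22 genes also differed between the libraries over all AT2 cells. They were chosen with earlier results of these data known, and they include Cxcl1 and Cxcl2, which lead an AT2 cluster here. The counts that follow describe these 22 genes and do not test them. Of 21 that reached 20 CPM, 4 were called higher and 0 lower, against 1.29% and 0.896% of all genes tested, and 20 had a log2 ratio above 0, with a median of 0.29 against -0.04 over all genes tested. The largest were Cxcl2 (37.0 CPM in tumor-bearing and 9.27 CPM in control AT2 cells, 3.99-fold), the heat shock chaperone Hspa1a (47.2 and 15.1 CPM, 3.12-fold) and Cxcl1 (124 and 59.1 CPM, 2.09-fold), and the fourth was Klf2 (1.80-fold), named after its value was seen. Transcripts of other cell types also differed between the AT2 gates. The summed level of the 10 endothelial markers was 163 CPM in tumor-bearing and 49.0 CPM in control AT2 cells, of the 4 neutrophil markers 30.2 and 0.203 CPM, of the 7 fibroblast markers 52.6 and 19.1 CPM, and of the 5 red cell markers 54.8 and 257.9 CPM. Without the clusters led by fibroblast, platelet or red cell genes, the last with 19 tumor-bearing and 84 control AT2 cells, the log2 ratio of Areg was 0.85, and without the Cxcl1-led cluster it was 0.72. Leaving out clusters does not take such transcripts or the immediate early genes out of the cells that stay. What part the tissue digestion, the sort or these transcripts have in the Areg difference was not tested.

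Areg fell as the Sftpc share of a cell rose, and the libraries differed along the whole range. In cells with Sftpc at 15% to 20% of UMIs Areg was 279 CPM in the tumor-bearing and 138 CPM in the control library. At 20% to 30% it was 132 CPM in the tumor-bearing and 74.6 CPM in the control library, and at 30% and above 49.0 and 29.0 CPM. Cells just under the gate, with 10% to 15%, had 272 CPM in the tumor-bearing and 147 CPM in the control library. Hbegf fell too, with 104, 70.9 and 35.2 CPM over the same 3 gated ranges in the tumor-bearing library and 88.7, 50.9 and 32.1 CPM in the control library. Erbb2 was 9.29, 8.95 and 8.97 CPM in the tumor-bearing library, with no fall beyond the lowest range, and 14.1, 9.78 and 6.84 CPM in the control library, where it fell too. Erbb3 fell in both, with 24.0, 19.7 and 17.8 CPM in the tumor-bearing and 26.0, 23.5 and 18.9 CPM in the control library. Egfr also fell in both libraries, so the fall was not confined to the ligands. Tgfa was 4.65, 5.52 and 4.04 CPM in the tumor-bearing and 5.93, 5.49 and 4.47 CPM in the control library. CPM is taken over all genes, Sftpc included, so a larger Sftpc share by itself leaves less for every other gene. The falls were not corrected for this.

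Outside AT2 cells, 3 more calls were made, each on few molecules. In AT1 cells Areg, at 42.4 CPM in the tumor-bearing and 22.9 CPM in the control library, was called higher with a fold of 1.85 (1.24 to 2.78). It was the only call among the 4 genes tested in that class, where 8.54% of all genes tested were called higher, 4.75% lower and 13.3% in either direction. Of 56 Areg UMIs in tumor-bearing AT1 cells 48 came from 5 of 175 cells, and in control AT1 cells 25 of 49 came from 5 of 316. The AT1 cells with an Areg UMI had a median Sftpc share of 12.2% of UMIs in the tumor-bearing library, against 0.942% in those without one, and in the control library the medians were 4.54% and 1.505%. Thinned AT1 cells with an Areg UMI were 1.71% in tumor-bearing and 1.90% in control lung, so the share of cells did not follow the CPM.

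Hbegf differed in the airway classes in the other direction than in AT2 cells. In ciliated cells it stood at 40.7 CPM in tumor-bearing cells and 74.3 CPM in control cells, with a fold of 0.548 (0.378 to 0.785), and it was called lower, as were 5.80% of all genes tested there, while 6.58% were called higher. The counts were 47 UMIs in 24 of 215 tumor-bearing cells and 96 UMIs in 42 of 283 control cells. In club cells Hbegf stood at 9.24 CPM in tumor-bearing cells and 21.1 CPM in control cells, with a fold of 0.437 (0.253 to 0.785), and it was called lower, as were 15.8% of all genes tested there, with 2.53% called higher and a median log2 ratio of -0.22. The club markers took 640854 CPM of tumor-bearing and 585684 CPM of control club cells, so all other genes shared a smaller remainder in the tumor-bearing library. What part this has in the Hbegf fold was not tested. With free RNA subtracted, Hbegf was 4.35 CPM in tumor-bearing and 16.9 CPM in control club cells, a log2 ratio of -1.75 against -1.11 before, and it was no longer called because both levels lay under 20 CPM. Areg in ciliated cells had a fold of 1.29 (1.04 to 1.61) and was not called. In AT1 cells Hbegf (1.10, 0.972 to 1.24), Egfr (1.32, 0.859 to 2.00) and Erbb3 (0.863, 0.548 to 1.34) were not called, and their intervals hold 1. Neither was Hbegf in endothelial cells (0.911, 0.609 to 1.42), where 18.3% of all genes tested were called higher, 15.9% lower and 34.2% in either direction.

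In the lists drawn up for signaling downstream of the receptors, no gene that reached 20 CPM was called in AT2 cells. The immediate early genes, of which 4 were called higher, are a separate list that shares some genes with these. There, 2.19% of all genes tested were called in either direction, and the median log2 ratio over them was -0.04. None of the 6 tested genes for feedback and receptor turnover was called, with a median log2 ratio of 0.19 and 5 above 0. The largest were Usp8, a deubiquitinase of endosomes (72.2 CPM in tumor-bearing and 50.6 CPM in control AT2 cells, 1.43-fold), Errfi1, an inhibitor of the EGF receptor kinase (237 and 184 CPM, 1.29-fold), and Spred1, an inhibitor of RAS signaling (39.1 and 31.9 CPM, 1.23-fold). None of the 8 tested transcriptional targets of ERK was called, with a median of 0.14 and 7 above 0. Ccnd1, a cyclin of the G1 phase, was at 123 CPM in tumor-bearing and 84.1 CPM in control AT2 cells (1.46-fold), Phlda1 at 422 and 295 CPM (1.43-fold), and Etv5, a transcription factor that is itself an AT2 marker, at 235 and 280.3 CPM (0.838-fold). None of the 17 tested signal transducers was called, with a median of -0.03 and 5 above 0. The largest in size were the kinases Araf (25.3 CPM in tumor-bearing and 30.2 CPM in control AT2 cells, 0.835-fold), Akt2 (31.7 and 35.6 CPM, 0.889-fold) and Map2k2 (87.8 and 96.3 CPM, 0.912-fold). Genes of these lists under 20 CPM could not be called, and some, named after their values were seen, had fold intervals off 1. Among them Spry4 (2.10, 1.43 to 3.11), Dusp5 (1.62, 1.27 to 2.07), Myc (1.48, 1.15 to 1.90) and Dusp6 (1.23, 1.12 to 1.35) lay above 1. Gab1 (0.878, 0.784 to 0.983) and Plcg1 (0.900, 0.828 to 0.978) lay below it. Of the 8 genes for ligand shedding only Timp3, an inhibitor of ADAM proteases, reached 20 CPM (110.0 CPM in tumor-bearing and 88.3 CPM in control AT2 cells, 1.25-fold), and it was not called. None of the 8 other EGF family ligands and receptors reached 20 CPM in AT2 cells. In these 2 lists too, some genes under 20 CPM, named after their values were seen, had fold intervals off 1. Btc (1.48, 1.23 to 1.78) and Adam9 (1.13, 1.02 to 1.26) lay above 1, and Rhbdf2 (0.839, 0.759 to 0.926) and Adam10 (0.861, 0.780 to 0.949) below it.

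Single AT2 cells that held one ligand held the other more often. After thinning, Hbegf was seen in 15.5% of tumor-bearing AT2 cells with an Areg UMI and in 8.75% of those without, and in the control library in 11.9% and 7.61%. The correlation of the pair over thinned cells was weak, with r = 0.091 over 6262 tumor-bearing and 0.054 over 9089 control cells. Genes were ranked by the lower of their r in the tumor-bearing and the control library. Among 1633 genes, those closest to Areg were Krt8, Fos, Klf6, Junb, Egr1 and Jun (r = 0.13 to 0.16 in the tumor-bearing and 0.11 to 0.13 in the control library). Those closest to Hbegf were Egr1, Ier2, Fos, Dusp1, Jun and Junb (0.12 to 0.16 in the tumor-bearing and 0.11 to 0.13 in the control library). For Erbb3 the leading genes, Fosb, Csnk2b, Slc25a10, Vgll4, Nr4a1 and mt-Nd4l, all had r under 0.03, and in sparse counts such values are no finding. All cells of a library share its depth and its free RNA, so these values describe the cells only.

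Across classes, the profile of each gene over 10 class and library profiles was set against 5164 genes of at least 50 CPM in a profile. Hbegf was most like Tspan15 (r = 0.987), Ndfip1, Myl12a and Ndufs8, and Egfr most like Epb41l5 (0.967), Rab11fip1, Serinc2 and Nsun4. Tspan15 stood at 592 CPM in tumor-bearing and 555 CPM in control AT1 cells, against 36.7 and 45.8 CPM in AT2 cells. Areg was most like Swt1 (0.961), Sdc4, Gde1 and Etfb, and Erbb3 most like Spint1 (0.966). Erbb2 was most like Hint2 (0.980), Hipk3, Rilpl2 and Cdpf1, and Tgfa most like Nnat (0.955), Lrrk1, Prorsd1 and Bmpr1a. Few counts lie behind some of these profiles. Tgfa had 1 UMI in control club cells, and 3 and 2 in tumor-bearing and control endothelial cells. Egfr had 2 UMIs in club cells of each library, and 1 and 0 in tumor-bearing and control endothelial cells. For Ereg, with so few counts, the 4 leading genes (Tmem220, Fam46a, Atp13a3 and Tbcel, r = 0.71 to 0.72) follow 1 UMI in ciliated cells. The 5 classes of each library share depth and free RNA, and the values are a description.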

How the data were processed

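Per the labels' protocols and the series design, CD45- SftpC+ lung cells were sorted, and droplet libraries were read on a NovaSeq6000 and processed with Cell Ranger 2.1.0. The submitters' processing notes name mm10, R 3.5.3 and Seurat, without a role. As deposited by the authors, each matrix holds UMI counts, not normalised, for 737280 barcodes, so cells had not been called. From these, barcodes with at least 2000 UMIs, at least 500 genes and at most 20% mitochondrial UMIs were kept. The Scrublet score (scanpy 1.11.5) marked 0 tumor-bearing and 1 control doublets at its own threshold and so did not work there, and instead the cells with the highest scores were removed, 533 tumor-bearing and 966 control, a share that grew with the number of cells. Both libraries were clustered together (2000 variable genes without the members, 30 components, 15 neighbours, Leiden resolution 0.5). Clusters were named from fixed markers, basal cells after re-clustering the club cluster, and cells that passed the AT2 gate were taken out of the other classes. The class names are not those of the study.

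UMIs were summed per class and library (CPM over all genes). Intervals are exact Poisson for a level, conditional binomial for a fold and Clopper-Pearson for a share (scipy 1.17.1), and log2 ratios use CPM + 1. Correlations are Pearson r of log values per 10000 UMIs after thinning, for genes seen unthinned in at least 10% of AT2 cells of both libraries. The steps were tested on simulated data. Besides the 7 members, the text names the 3 largest log2 ratios of each gene list among genes of at least 20 CPM, the 6 closest genes over cells, the 4 closest over profiles (for Erbb3 only the closest, the others not being reported here) and the 3 leading genes of each cluster. The members and lists were chosen with earlier results of these data known. Alternatives covered the gate, the filters, scaling, free RNA and clustering.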

Additional observations from a re-analysis of the deposited data

Results flagged for a closer look

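Hbegf had its difference between the libraries in opposite directions in separate classes. Its fold of tumor-bearing over control was 1.33 in AT2 cells and 0.437 in club cells, on 50 tumor-bearing and 19 control UMIs. In ciliated cells the fold was 0.548, on 47 tumor-bearing and 96 control UMIs, again against 1.33 in AT2 cells. The difference between classes was not tested, since each group had 1 library.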

How the results depend on the processing

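No paired analysis was possible because each group had 1 library, and no replicate could be left out. The log2 ratio of Areg in AT2 cells stayed between 0.59 and 0.88 over 15 settings. It was 0.592 as the mean over 6 AT2 clusters weighted equally and, in settings added after seeing the data, 0.591 with the immediate early bins weighted equally and 0.720 without the Cxcl1-led cluster. Areg was the only member past 1.5-fold in all 16 settings of that count. It passed only just with the clusters weighted equally (95.25 CPM in the tumor-bearing and 62.85 CPM in the control library). The same held with the immediate early bins weighted equally (90.88 and 60 CPM). Hbegf ran from 0.15 to 0.45 and Erbb3 from -0.24 to -0.16. The count of all AT2 genes past 1.5-fold was 88 and became 744 with a minimum of 1 CPM, which admits genes of few UMIs. The count of members past 1.5-fold in club cells was 1 and became 0 with free RNA subtracted, since Hbegf then lay under 20 CPM in both libraries, although its log2 ratio went to -1.75. Of 176 other values 158 held, which for a log2 ratio means that it stayed within its counting interval. The other 18 moved, most of them shares of cells without thinning. A reversal was scored only for ratios that had been called, and 0 of those reversed. Some uncalled ratios with wide intervals changed sign, such as Areg in endothelial cells, from 0.68 to -0.55 with all cells of the cluster. Median of ratios scaling changed the scale between libraries by -0.05 on the log2 scale and moved no member's AT2 ratio by more than that. Endothelial cells could not be fitted with each library clustered on its own, because the control cluster stayed unnamed. Depth limits Ereg in all classes and each gene in basal cells.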

Other observations

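Other genes of the pathway had class patterns of their own, named here after their values were seen. Timp3, which inhibits ADAM proteases, was far higher in AT1 cells (1545 CPM in the tumor-bearing and 1494 CPM in the control library) than in AT2 cells (110.0 and 88.3 CPM). Nrg1, a ligand of Erbb3, was found in ciliated cells (32.1 CPM from 37 UMIs in the tumor-bearing and 17.0 CPM from 22 UMIs in the control library) and in AT1 cells (15.9 CPM from 21 UMIs and 10.3 CPM from 22 UMIs), while AT2 cells had 0.209 and 0.203 CPM. Basal cells held 11 Nrg1 UMIs (55.6 CPM) in tumor-bearing and 5 (20.8 CPM) in control lung. Nrg2 was found in basal cells, with 10 UMIs in 23 tumor-bearing and 16 UMIs in 42 control cells, while tumor-bearing and control AT2 cells held 15 and 7 UMIs in all. Btc, a further ligand of the EGF receptor, had 61 UMIs (11.3 CPM) in tumor-bearing and 6 UMIs (6.67 CPM) in control club cells. Erbb4 was counted once, in a tumor-bearing AT2 cell. Errfi1 was 293 CPM in tumor-bearing and 201 CPM in control AT1 cells, and 35.5 CPM in tumor-bearing and 77.4 CPM in control ciliated cells.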
